A study of Homo sapiens with 3 samples.

Results

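Transcripts of the hypoxia-inducible factor HIF-1, of the enzymes that restrain it and of 5 of its targets outside glycolysis were read in Jurkat cells, an established human T-lineage acute lymphoblastic leukaemia line. The 10 genes were chosen by name, and all 10 were found among the 17329 genes of the deposited table. They are HIF1A, ARNT, EGLN1, HIF1AN, VHL, VEGFA, P4HA1, BNIP3, BNIP3L and NDRG1. The cells were kept for 48 hours in 1 of 3 media. The oxamate+lactate culture received L-sodium lactate at 10 mM together with sodium oxamate at 50 mM, the oxamate culture received 50 mM sodium oxamate alone, and the control culture received the standard medium. All 3 shared the same serum-supplemented base medium, and no hypoxic culture is among them. With a single library per condition nothing could be tested, and how many cultures stand behind a library is not stated, so every difference below is one between libraries.

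HIF-1 is a pair of proteins, the oxygen-regulated HIF1A and its constant partner ARNT. When oxygen is present, the prolyl hydroxylase EGLN1 marks HIF1A, the ubiquitin ligase built on VHL removes it, and the asparaginyl hydroxylase HIF1AN blocks its contact with the coactivators EP300 and CREBBP. When oxygen is short, HIF1A is kept and genes such as VEGFA, P4HA1, BNIP3, BNIP3L and NDRG1 are transcribed. The hydroxylases need 2-oxoglutarate and can be influenced by pyruvate, lactate and related acids in cells. HIF1A is controlled mainly as a protein, and these RNA values measure neither the protein nor its hydroxylation. Oxamate is a pyruvate analogue that inhibits lactate dehydrogenase, and the series set out to relate lactate and lactylation of histone H3 to transcription.

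The core letters that HIF-1 recognises are ACGTG or GCGTG. They were searched on both strands in the 250 bases before each RefSeq gene start (GRCh38.p14), and overlapping matches were each counted. Of the 10 genes, 6 had a window in the RefSeq promoter table, and 4 of these 6 held at least 1 match (HIF1A, EGLN1, BNIP3 and P4HA1). HIF1A had 2 windows, and the second held 0 matches. VEGFA, VHL, BNIP3L and NDRG1 had no window there and were not searched. Among all 35116 windows of the table, 43.2% held a match, so a match is common and is a description, not a site. That share is counted per window, while the 4 of 6 is counted per gene. The windows of 3 HIF-1 targets are printed because they can be set beside the values below. They are EGLN1, itself a HIF-1 target, at chr1:231422288-231422537, BNIP3 at chr10:131981924-131982173 and P4HA1 at chr10:73096867-73097116. All 3 are on the minus strand and are written 5′ to 3′ in the direction of the gene, with the matches in capitals.
EGLN1: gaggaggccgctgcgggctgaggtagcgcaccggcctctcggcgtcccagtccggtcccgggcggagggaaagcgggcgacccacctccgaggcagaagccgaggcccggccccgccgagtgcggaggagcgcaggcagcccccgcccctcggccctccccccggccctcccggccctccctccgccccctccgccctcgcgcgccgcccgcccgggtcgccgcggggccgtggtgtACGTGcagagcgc
BNIP3: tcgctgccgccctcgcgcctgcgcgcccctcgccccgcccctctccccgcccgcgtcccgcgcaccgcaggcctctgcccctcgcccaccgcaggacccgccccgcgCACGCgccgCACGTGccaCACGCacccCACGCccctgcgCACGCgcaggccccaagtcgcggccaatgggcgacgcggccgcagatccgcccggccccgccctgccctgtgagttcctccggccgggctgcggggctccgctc
P4HA1: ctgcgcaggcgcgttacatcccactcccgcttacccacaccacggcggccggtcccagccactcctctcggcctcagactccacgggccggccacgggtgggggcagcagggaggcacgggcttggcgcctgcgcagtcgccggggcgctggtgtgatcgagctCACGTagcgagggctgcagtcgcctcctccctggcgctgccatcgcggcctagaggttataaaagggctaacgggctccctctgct
BNIP3 held 6 matches, between 143 and 104 bases before the start. Of these, 2 overlap in the palindrome that begins 134 bases before it. EGLN1 held 1 match, 13 bases before its start, and P4HA1 held 1, 86 bases before. None of these 3 genes was past 1.5-fold in any comparison, nor was HIF1A, the other gene with a match. VEGFA, which was, could not be compared because it had no window.

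Values are given as the normalized counts that the authors deposited, and their depth in reads is unknown, which leaves them without counting intervals. Gene values summed to 8171633 in oxamate+lactate, 8821115 in oxamate and 8220199 in control. Ratios were taken as log2 of (value + 1) over (value + 1), and fold changes are on that scale. They were read against the 12292 genes with a mean value of 50 or more across libraries, among which are all 10 HIF-1 genes. They were also read against 18 ERCC spike-in RNAs with a mean of at least 100, which were added after RNA extraction and show technical spread, not the spread between cultures. The SD of the spike-in ratios was 0.13 for oxamate against control, 0.11 for oxamate+lactate against oxamate and 0.19 for oxamate+lactate against control. The median ratio of all genes was 0.08, -0.09 and -0.01 in the same comparisons. Of the T-lineage markers, 13 of 14 were analysed, and they summed to 23733 in oxamate+lactate, 25264 in oxamate and 22370 in control. Of the 29 markers listed for B, myeloid, erythroid, epithelial, fibroblast and endothelial cells, 7 were analysed and 2 were over a mean of 50. These 2 were CD79A, at 71, 62 and 76, and COL1A1, at 165, 202 and 202, in the same order of libraries. In bulk RNA, fewer cells with a transcript and less of it per cell cannot be told apart.

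VEGFA was the one gene of the 10 that differed by 1.5-fold or more. It encodes vascular endothelial growth factor A, the secreted ligand that drives growth of blood vessels and the best known HIF-1 target. VEGFA had 331 normalized counts in oxamate+lactate, 225 in oxamate and 590 in control. The control library was highest, the oxamate library lowest, and the library with lactate lay between them. In oxamate VEGFA was 2.62-fold lower than in control, a log2 ratio of -1.39. Of the 12292 genes, 31, VEGFA included, had a ratio as low or lower. In oxamate+lactate VEGFA was 1.78-fold lower than in control, a log2 ratio of -0.83, with 112 genes as low or lower. In oxamate+lactate VEGFA was 1.47-fold higher than in oxamate, a log2 ratio of 0.55, just under the 1.5-fold mark. In that comparison 46 of the 12292 genes were as high or higher.

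**Figure D1:**
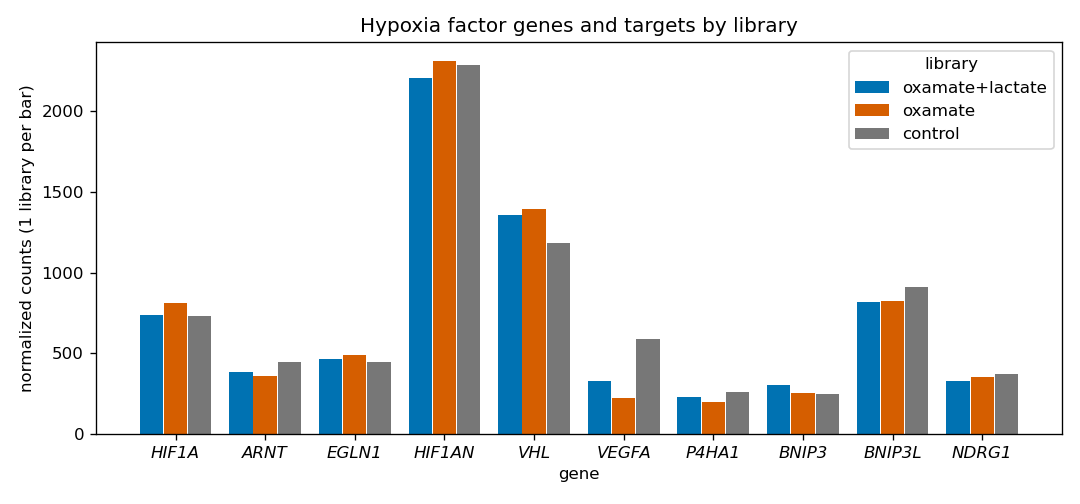
Normalized counts (vertical axis, linear from 0) of the 10 genes (horizontal axis), with 1 bar per library in the order oxamate+lactate, oxamate and control; there are no replicates and so no error bars. VEGFA stands at 331, 225 and 590, while the 3 bars of HIF1A are at 738, 811 and 734.

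For oxamate against control, 0 of the 10 were higher by 1.5-fold or more and 1 was lower by as much. Over all genes, 7.48% were higher and 3.98% lower by that measure, so the counts among the 10 are close to the background. VEGFA was also the 1 gene of the 10 at least 2-fold lower, as were 0.879% of all genes. For oxamate+lactate against oxamate, 0 were past 1.5-fold, and over all genes 0.252% were higher and 0.903% lower. With equal totals, with equal ERCC sums, relative to the median ratio or after removal of the GC and length trend, 1 of the 10, VEGFA, was higher. For oxamate+lactate against control, 0 were higher and 1 was lower, and over all genes 2.99% were higher and 3.07% lower. The background depends on how the columns are scaled. Over all genes, oxamate against control gave 920 genes higher and 489 lower as deposited, but 569 higher and 702 lower with equal totals. With equal totals, oxamate+lactate against oxamate gave 78 higher and 42 lower, in place of 31 and 111. With equal ERCC sums, oxamate+lactate against control gave 507 higher and 266 lower, in place of 367 and 377. The median ratio of the 10 genes was -0.03 for oxamate against control, -0.02 for oxamate+lactate against oxamate and -0.10 for oxamate+lactate against control. Since the 3 comparisons share libraries, they are not independent of each other.

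**Figure D2:**
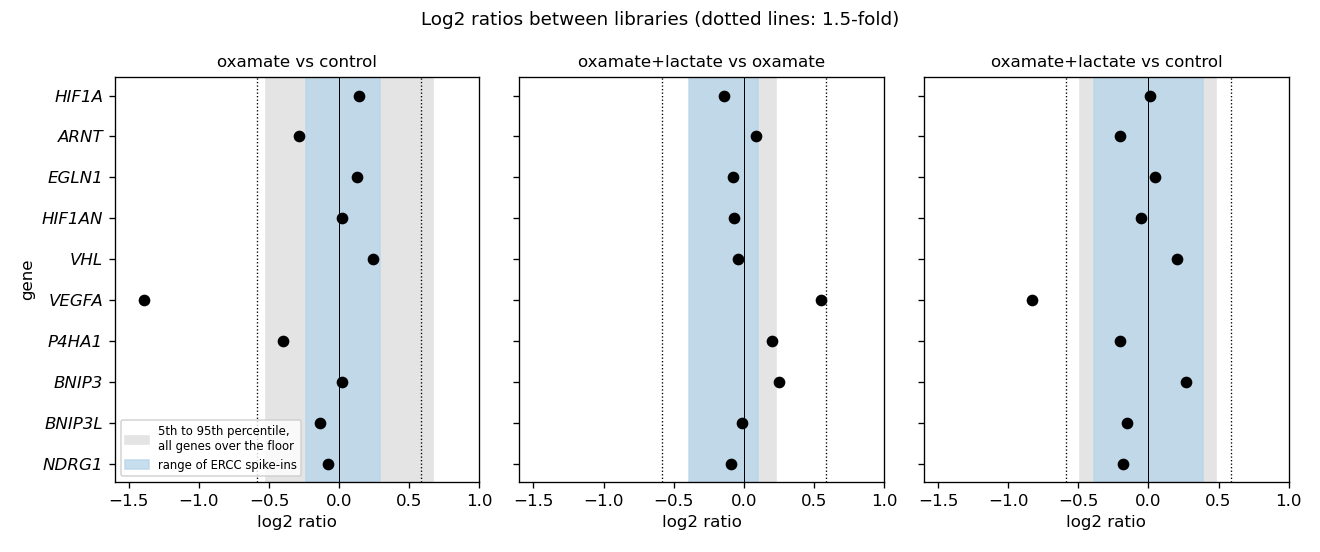
Log2 ratio (horizontal axis) of each of the 10 genes (vertical axis) in the 3 comparisons; points are single ratios between libraries, the grey band spans the 5th to 95th percentile of the 12292 genes, the blue band spans the 18 ERCC spike-ins, and dotted lines mark 1.5-fold. VEGFA lies outside the grey band in all 3 panels, at -1.39, 0.55 and -0.83. BNIP3, at 0.25 for oxamate+lactate against oxamate, is also outside it, just above the 95th percentile of 0.23.

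The subunits of the factor itself differed little. HIF1A, the oxygen-regulated subunit, had 738 normalized counts in oxamate+lactate, 811 in oxamate and 734 in control. Its log2 ratio was 0.14 for oxamate against control and 0.01 for oxamate+lactate against control, close to the SD of the spike-ins or under it. With the trend on GC content and transcript length removed, the first was 0.32. The trend was not removed from the spike-ins, so their highest ratio of 0.29 is not on the same footing. HIF1A overlaps the antisense RNA HIF1A-AS1 in the annotation, which had 105, 95 and 80 in the same order. The kit used keeps no strand information, and reads from the overlap cannot be told apart. ARNT, the constant partner, had 386 in oxamate+lactate, 363 in oxamate and 444 in control. Its log2 ratio for oxamate against control was -0.29, below the lowest spike-in ratio of -0.24 but between the 5th and 95th percentiles of all genes, -0.52 and 0.67. The oxygen-regulated relative EPAS1, or HIF-2 alpha, was under a mean of 50, with 19, 18 and 32.

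The enzymes that restrain HIF1A also differed little. EGLN1, also called PHD2, had 465 normalized counts in oxamate+lactate, 492 in oxamate and 448 in control, and its largest log2 difference between any 2 libraries was 0.13. HIF1AN, or factor inhibiting HIF, had 2205, 2312 and 2288 in the same order, and its range of 0.07 was the narrowest of the 10 genes. Of all 12292 genes, 95.4% had a range at least as wide. VHL, the substrate receptor of the ubiquitin ligase, had 1358 in oxamate+lactate, 1396 in oxamate and 1184 in control. Both treated libraries were above control, with log2 ratios of 0.20 and 0.24, inside the spike-in range of each comparison. HIF1AN overlaps NDUFB8 on the other strand, which had 221, 224 and 220.

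EGLN2 had the widest range among the other genes of this brake. Of 6 listed genes for prolyl hydroxylases and the VHL complex, 6 were analysed, 4 were over a mean of 50 and 0 were past 1.5-fold in any comparison. Over all genes, 7.48% were higher and 3.98% lower for oxamate against control. The shares were 0.252% and 0.903% for oxamate+lactate against oxamate, and 2.99% and 3.07% for oxamate+lactate against control. The median ratio of the 4 genes over a mean of 50 for oxamate against control was 0.08, the same as that of all genes. EGLN2, the prolyl hydroxylase also called PHD1, was at the edge of the mark. It had 89 in oxamate+lactate, 132 in oxamate and 88 in control, log2 ratios of -0.56 for oxamate+lactate against oxamate and 0.58 for oxamate against control. With a pseudocount of 0 its ratio for oxamate against control reached 1.5-fold, and the count of genes higher was 1 in place of 0. EGLN2 shares exons with a readthrough transcript from RAB4B. TCEB2 and TCEB1, the older symbols of the elongins B and C that join VHL to its cullin, had log2 ratios of 0.16 and -0.18 for oxamate against control. CUL2, that cullin, stood at 0.00, with 554 in oxamate and 555 in control. TCEB2 overlaps SRRM2, which had 8001, 10693 and 7205 in oxamate+lactate, oxamate and control. Per kilobase of the longest annotated transcript, the oxamate+lactate library had 65.5 normalized counts of EGLN1, 22.9 of EGLN2 and 11.9 of EGLN3, the hypoxia-induced hydroxylase. The oxamate library had 69.3, 33.9 and 11.2, and the control library 63.1, 22.6 and 11.2, so EGLN1 was the most abundant of the 3 on that scale in each.

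Most coactivators and protein regulators of HIF1A lay above control in oxamate, and SENP1 lay below it. Of 6 listed, 6 were over a mean of 50. The ratio was above that of the median gene for 5 of them in oxamate against control. In oxamate+lactate against control it was so for 4. For oxamate against control 2 were at least 1.5-fold higher and 0 were lower, against 7.48% and 3.98% of all genes. The median ratio was 0.39, against 0.08 for all genes. With equal totals, or relative to the median ratio, 0 were higher. SIAH2, a ubiquitin ligase that degrades prolyl hydroxylases, had 1498 in oxamate+lactate, 1565 in oxamate and 1027 in control, a log2 ratio of 0.61 for oxamate against control. Its antisense neighbour SIAH2-AS1 had 303, 333 and 204, so both were higher in the treated libraries and reads of the overlap cannot be told apart. CITED2, which competes with HIF1A for EP300, had 151, 204 and 135, a log2 ratio of 0.59. Both values lie just past the mark of 1.5-fold and were under it when the columns were scaled to equal totals or taken relative to the median ratio, where SIAH2 was as low as 0.51 and CITED2 as low as 0.49. With a pseudocount of 10, CITED2 was also under the mark, at 0.56, while SIAH2 was at 0.60. EP300 and CREBBP had log2 ratios of 0.41 and 0.36. SENP1, a SUMO protease that stabilises HIF1A, had 524 in oxamate+lactate, 436 in oxamate and 563 in control, a log2 ratio of -0.37. SENP1 overlaps PFKM, at 93, 119 and 135.

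P4HA1 came second to VEGFA in size of difference on the values as deposited. It encodes the catalytic alpha subunit of collagen prolyl 4-hydroxylase, which works on collagen and not on HIF1A. P4HA1 had 229 normalized counts in oxamate+lactate, 199 in oxamate and 263 in control. Control was highest and oxamate lowest. The log2 ratio of P4HA1 for oxamate against control was -0.40, and 8.46% of all genes were as low or lower. For oxamate+lactate against oxamate it was 0.20, and for oxamate+lactate against control -0.20. With the trend on GC content and transcript length removed, the first of these was -0.27. That is smaller in size than the 0.32 of HIF1A under the same setting, so the second place was lost. Of 7 listed collagen hydroxylases, 4 were analysed, all over a mean of 50, and their ratios for oxamate against control ran from 0.04 to 0.60. P4HB, the protein disulfide isomerase that is the beta subunit, had 3070, 3308 and 3217, a log2 ratio of 0.04. PLOD3, a lysyl hydroxylase, had 154 in oxamate+lactate, 155 in oxamate and 102 in control. Its log2 ratio was 0.60 for oxamate against control and 0.59 for oxamate+lactate against control, and it was the 1 gene of the 4 past 1.5-fold. Over all genes, 7.48% were higher and 3.98% lower in oxamate, and 2.99% higher and 3.07% lower in oxamate+lactate, each against control. The PLOD3 ratios were as low as 0.46 and 0.49 under other scalings or once the GC and length trend was removed. With a pseudocount of 10 they were 0.56 and 0.55, also under the mark. PLOD3 overlaps ZNHIT1, at 512, 605 and 474.

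BNIP3 and BNIP3L, also called NIX, are related receptors on the outer mitochondrial membrane that recruit the autophagy machinery to mitochondria. BNIP3 had 302 normalized counts in oxamate+lactate, 254 in oxamate and 251 in control. Only the library with lactate stood above the others, with a log2 ratio of 0.25 against oxamate and 0.27 against control. The first lay above the highest spike-in ratio of 0.10 and just above the 95th percentile of all genes, 0.23. The second lay inside the spike-in range, which reached 0.39. The annotation names 39 pseudogenes of BNIP3, and how the authors' counting treated reads shared with them is not known here, so its level is uncertain. BNIP3L had 819, 824 and 909 in the same order of libraries. Both treated libraries were below control, with log2 ratios of -0.15 and -0.14, inside the spike-in range. BNIP3L overlaps PNMA2 on the other strand, at 935, 912 and 1259, and the part of that neighbour in the BNIP3L value was not tested. Per kilobase of the longest annotated transcript, BNIP3L was above BNIP3 in each library, with 227 against 98.5 in oxamate+lactate, 228 against 82.8 in oxamate and 252 against 81.9 in control.

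Some genes that act beside BNIP3 in mitophagy were past 1.5-fold, in opposite directions. Of 14 listed, 14 were analysed and 12 were over a mean of 50. For oxamate against control 1 was at least 1.5-fold higher and 2 were lower, against 7.48% and 3.98% of all genes, and the median ratio was 0.01. GABARAPL1, a member of the LC3 family that BNIP3-type receptors bind, had 109 normalized counts in oxamate+lactate, 110 in oxamate and 207 in control. Both treated libraries were below control, with log2 ratios of -0.92 and -0.91. OPTN, or optineurin, a cargo receptor of the PINK1 route, had 183, 151 and 250, a log2 ratio of -0.72 for oxamate against control. PINK1, the kinase that marks damaged mitochondria, had 464 in oxamate+lactate, 541 in oxamate and 301 in control. Its log2 ratios were 0.62 and 0.84 against control. The antisense gene PINK1-AS had 273, 342 and 247, and reads of the overlap cannot be told apart. Among the most abundant members, FKBP8 was at 0.06, PHB2 at 0.13, CALCOCO2 at -0.39 and BECN1 at -0.11 in log2 ratio for oxamate against control.

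NDRG1, a gene of stress and differentiation responses that is often used as a marker of hypoxia, had 329 normalized counts in oxamate+lactate, 351 in oxamate and 372 in control. Its log2 ratios were -0.18 and -0.08 against control, inside the spike-in range. NDRG3, whose protein is described as an EGLN1 substrate that lactate protects, had 536, 534 and 606. Its RNA was at the same log2 ratio of -0.18 in each treated library against control. NDRG2, another family member, had 122, 146 and 153. None of the family over a mean of 50 was past 1.5-fold in any comparison. Over all genes, 7.48% were higher and 3.98% lower for oxamate against control. The shares were 0.252% and 0.903% for oxamate+lactate against oxamate, and 2.99% and 3.07% for oxamate+lactate against control.

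Other genes of VEGF signalling had smaller ratios than VEGFA. VEGFB, a related ligand that is not a typical hypoxia target, had 377 normalized counts in oxamate+lactate, 441 in oxamate and 321 in control, a log2 ratio of 0.46 for oxamate against control. Among the receptors, FLT4 had 340, 372 and 456, a log2 ratio of -0.29 for oxamate against control. FLT1 had 63, 78 and 77, a ratio of 0.02. Of 9 listed ligands and receptors, 4 were analysed, 3 were over a mean of 50 and 0 were past 1.5-fold in any comparison. Over all genes, 7.48% were higher and 3.98% lower for oxamate against control. The shares were 0.252% and 0.903% for oxamate+lactate against oxamate, and 2.99% and 3.07% for oxamate+lactate against control. A count of 0 among 3 genes is thus near the background. Per kilobase of the longest annotated transcript, VEGFB stood above VEGFA in each library, with 273 against 27.2 in oxamate+lactate, 320 against 18.5 in oxamate and 233 against 48.5 in control. The longest VEGFA transcript is 12.2 kb, so its value per kilobase is a low estimate if shorter forms are expressed.

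Other HIF-1 targets lay on either side of the median gene. Of 32 listed genes outside glycolysis, 26 were analysed and 18 were over a mean of 50. For oxamate against control 2 of the 18 were at least 1.5-fold higher, 0 were lower, near the 7.48% and 3.98% of all genes. The median ratio was 0.18, with 11 above the median gene and 7 below it. These 2 were CITED2 and KDM4B, a histone demethylase, which had 811 in oxamate+lactate, 971 in oxamate and 640 in control, a log2 ratio of 0.60. The KDM4B ratio was as low as 0.43 and that of CITED2 as low as 0.49 under the alternatives of processing, both under the mark. TFRC, the transferrin receptor, was at 0.37, the chemokine receptor gene CXCR4 at 0.40 and ERO1L, the older symbol of an oxidase of the endoplasmic reticulum, at 0.11. The lowest was VLDLR, a lipoprotein receptor, with 987, 810 and 1099, a log2 ratio of -0.44. The targets under a mean of 50 are all given here, and they lay on either side of control. In oxamate+lactate, oxamate and control, ADM, which encodes adrenomedullin, had 8, 2 and 5 and ANGPTL4, a lipase inhibitor, had 12, 9 and 15. In the same order, RAB20, a small GTPase, had 33, 37 and 18 and CA12, a carbonic anhydrase, had 14, 11 and 5. BHLHE40 had 46, 30 and 57, LOX had 6, 2 and 9 and HMOX1 had 12, 12 and 16. These were lower in both treated libraries than in control. EGLN3 had 34, 32 and 32.

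Of 20 glycolytic HIF-1 targets, all over a mean of 50, 1 was at least 1.5-fold lower and 0 were higher in each treated library against control. Over all genes, 3.98% were lower and 7.48% higher in oxamate, and 3.07% lower and 2.99% higher in oxamate+lactate, so the count is near the background. The median ratio for oxamate against control was -0.04. The gene was PDK1, a kinase that inhibits pyruvate dehydrogenase, with 330 normalized counts in oxamate+lactate, 283 in oxamate and 508 in control. Its log2 ratio was -0.84 for oxamate against control, 0.22 for oxamate+lactate against oxamate and -0.62 for oxamate+lactate against control. With equal ERCC sums the last of these 3 ratios was -0.55, under the mark, as it also was with the GC and length trend removed. GAPDH, ALDOA, ENO1 and PKM, the most abundant of these genes, were at -0.42, -0.11, 0.24 and 0.29 for oxamate against control.

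**Figure D3:**
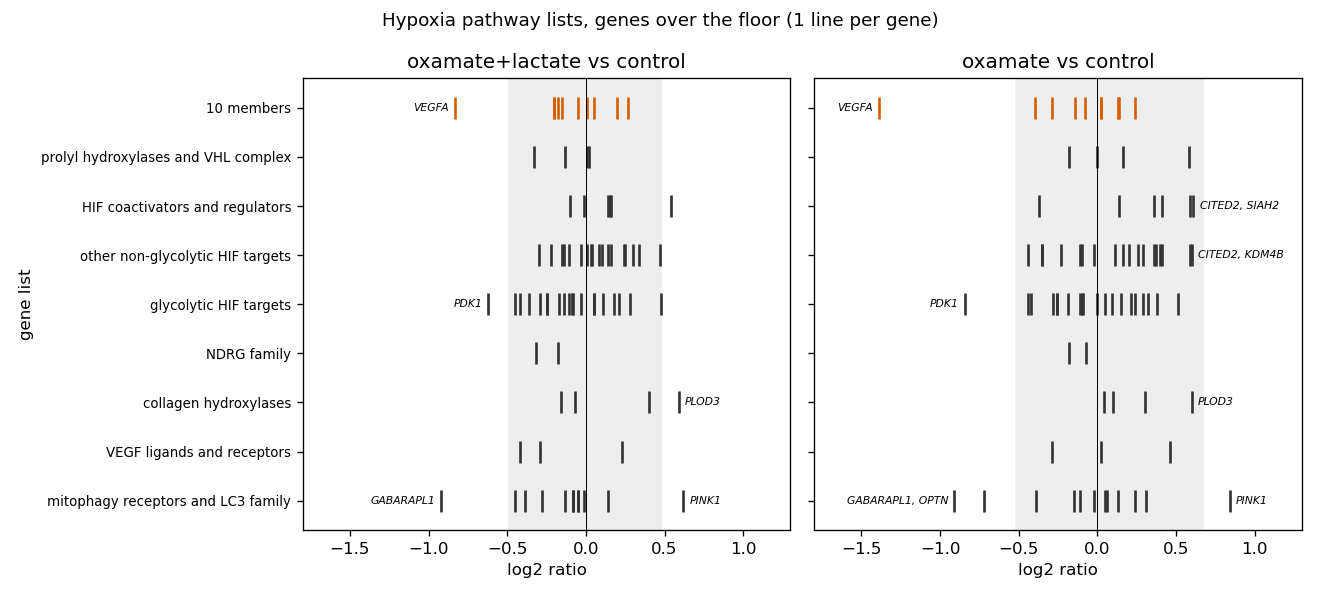
Log2 ratio (horizontal axis) of each gene with a mean of at least 50 (1 line per gene) in oxamate+lactate against control (left) and oxamate against control (right), by gene list (vertical axis); the 10 genes described are in orange, the grey band spans the 5th to 95th percentile of all genes, and genes past 1.5-fold are named. VEGFA, at -0.83 and -1.39, and PDK1, at -0.62 and -0.84, stand apart from the other targets on the low side.

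Genes with the pattern most like that of VEGFA were sought among the 5669 genes with a mean within 2-fold of it, by the distance between their 2 log2 ratios against control. The nearest was S1PR3, a receptor for sphingosine 1-phosphate, with 172 normalized counts in oxamate+lactate, 115 in oxamate and 311 in control. The next were RP11-108K14.4, with 203, 146 and 354, and TM6SF1, with 268, 202 and 520. For HIF1A the nearest of 4610 genes were SF3B5, NDUFS3 and SLC20A1, all at 0.14 or 0.15 for oxamate against control. Likeness over 3 libraries rests on 2 ratios that share the control library and is a description only.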

How the data were processed

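Polyadenylated RNA of Jurkat cells was sequenced in 3 libraries, 1 per condition, with ERCC spike-ins added to RNA from equal numbers of cells, per the labels' protocols. The submitters' processing notes list HTSeq 0.11.2, STAR 2.7.1a and FastQC 0.11.9 beside the build hg19. How the values were normalized, and on which annotation, is not known here. What the authors deposited is 1 table of 17365 rows of whole numbers called normalized counts, 36 of them ERCC rows. They were treated as a score that the authors normalized and rounded, so no count model was fitted. A change in total RNA per cell may have been removed from the gene ratios by the normalization. The ERCC rows made up 0.353% of the summed values in oxamate+lactate, 0.342% in oxamate and 0.368% in control. Whether RNA per cell differed was not tested.

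Log2 ratios used a pseudocount of 1 and a floor of a mean of 50 (Python 3.11.15, pandas 2.3.3, numpy 2.4.6), and the computation was tested on simulated data. A ratio of at least 1.5-fold was counted. Length, GC content (91.1% of genes over the floor) and exon overlaps came from GENCODE 29, whose build differs from hg19, and no gene coordinates are printed. Promoter windows came from RefSeq, on GRCh38.p14.

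All 10 genes were named whatever their values. From each list, genes past 1.5-fold and up to 4 with the highest mean were named. Further genes were named after their values were seen: EGLN3, EPAS1, ADM, ANGPTL4, RAB20, CA12, BHLHE40, LOX, HMOX1 and overlapping neighbours. The genes and lists were chosen with earlier results of these data known. Alternatives were other pseudocounts, floors, scalings and removal of the GC and length trend.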

Additional observations from a re-analysis of the deposited data

How the results depend on the processing

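No paired analysis was possible because each condition had 1 library, and for the same reason no library could be left out. Over 8 alternatives, 236 of 240 ratios of the 10 genes moved by less than the SD of the spike-in ratios and 0 of those past 1.5-fold changed sign. The other 4, all in oxamate against control after removal of the GC and length trend, were HIF1A at 0.32, BNIP3L at 0.00, VEGFA at -1.54 and P4HA1 at -0.27, and the cause was not tested. A change of floor cannot alter the ratios of these genes. Each scaling shifts all genes of a comparison by nearly the same amount. The figure of 236 of 240 therefore overstates how stable single genes are. VEGFA in oxamate against control ranged from -1.54 to -1.35, and in oxamate+lactate against control from -0.90 to -0.77. In oxamate+lactate against oxamate it ranged from 0.54 to 0.66. The number of the 10 genes at least 1.5-fold higher in oxamate+lactate than in oxamate was 1, VEGFA, in place of 0 with equal totals, with equal ERCC sums, relative to the median ratio and after removal of the GC and length trend. The other counts and the medians of the 10 genes did not move beyond these limits. Ratios of genes with low values are limited by depth, which is unknown.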
